A study of Mus musculus with 6 samples.

Results

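The loci described here are rows of a gene-level expression table of mouse interneurons that carry no gene name. They were chosen by their level: of 29606 loci in the table, 6074 had no gene name, and the 1524 of these with a mean of at least 1 FPKM over the 6 libraries are called unnamed loci below. FPKM values count fragments relative to the length of the transcript and the size of the library. Together with 11676 named loci at or above the same mean, they made up the 13200 loci that were tested between genotypes.

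The libraries hold RNA of interneurons sorted from the ganglionic eminences (GEs) of E13.5 embryos of strain MF1, with 3 WT libraries (CCP1 Wt/Wt; Dlx5,6 CRE GFP) and 3 CCP1 cKO libraries (CCP1 lox/lox; Dlx5,6 CRE GFP). Both genotypes carry the Cre-GFP transgene, which is driven by Dlx5/6 sequences active in the GABAergic lineage of the ventral forebrain and served to sort the cells by FACS. The floxed allele was made in 129S2/SvPas embryonic stem cells and bred with C57BL/6N animals, and it deletes part of Agtpbp1, the gene of the tubulin deglutamylase CCP1, only where Cre is active. The study describes its FPKM values as coming from embryos of different females, while the labels do not tie a library to an embryo. Replicates 1, 2 and 3 of the CCP1 cKO gave Agtpbp1 9.68, 10.1 and 9.56 FPKM and those of the WT 20.01, 18.9 and 18.1 FPKM, a log2 difference of -0.89 ± 0.06 (SE, limma, adjusted p = 0.00449). All 8 GABAergic markers had means between 52.0 and 173 FPKM, while none of 3 endothelial and none of 3 microglial markers reached 1 FPKM. All 4 markers of the cortical excitatory lineage did, with Neurod6 the highest at 6.94 FPKM, and their sum ranged from 9.87 to 19.998 FPKM in the CCP1 cKO and from 6.37 to 25.8 FPKM in the WT libraries. Of 4 red blood cell markers, 3 reached 1 FPKM, with sums of 11.4 to 30.8 FPKM in the CCP1 cKO and 18.3 to 33.0 FPKM in the WT. FPKM values hold no total count, so the depth of each library is unknown and no counting interval is given.

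A library of total RNA depleted of ribosomal RNA holds more than messenger RNA. It also carries pre-mRNA with its introns, antisense and promoter-upstream transcripts, the long precursors from which microRNAs are cut, and transcripts of RNA polymerase III such as tRNA precursors. Processed pseudogenes, which are copies of spliced mRNAs put back into the genome, share most of their sequence with the parent gene, so that a short fragment of RNA can match both places. An assembler of transcripts gives a locus number to every covered stretch, and a stretch that matches no gene of its annotation stays without a name.

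Most unnamed loci were low. Their median mean was 1.62 FPKM (quartiles 1.22 and 2.55) against 11.7 FPKM for named loci, and 979 of them (64.2%) lay between 1 and 2 FPKM, where 9.81% of named loci lay. At the other end, 72 had a mean of at least 20 FPKM and 31 of at least 100 FPKM, and the highest stood at 32764 FPKM against 12697 FPKM for the highest named locus. Just inside the limit of 1 FPKM were XLOC_010784 at 1.0005 FPKM, XLOC_002090 at 1.0016 FPKM and XLOC_022566 at 1.0035 FPKM. Just outside it lay XLOC_027947 at 0.9996 FPKM, XLOC_003286 at 0.9993 FPKM and XLOC_010151 at 0.999 FPKM. The levels are given as a description, since the level chose the loci.

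The locus column of the table gives 1 span to all loci of an assembled stretch, so its length is the length of that stretch and not always that of the locus. By this column 695 unnamed loci (45.6%) had a span of their own, 699 (45.9%) shared the exact span of a named locus and 130 (8.53%) shared a span with other unnamed loci. The 1524 loci fell on 1015 distinct spans. Median length was 1034 bases (quartiles 448 and 2007) for loci with their own span, 145579 bases for those in the span of a named locus and 5185 bases for the rest. The longest span was the 1229672 bases of XLOC_004188 in Odz2, and the shortest were the 82 bases of XLOC_005249, the 83 bases of XLOC_012492 and the 89 bases of XLOC_000151. A single isoform was assembled for 1412 unnamed loci (92.7%) and for 24.3% of named loci.

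The spread between libraries was wide. The median coefficient of variation between libraries of the same genotype, as the root mean square over both genotypes, was 40.3% for unnamed and 8.98% for named loci. These sets differ in level. From 1 to under 2 FPKM it was 42.3% for unnamed and 19.2% for named loci, and from 2 to under 5 FPKM 37.9% and 12.6%. From 5 to under 20 FPKM it was 26.5% and 8.24%, and from 20 FPKM on 42.8% and 7.46%. Values of exactly 0 in at least 1 library occurred at 83 unnamed loci (5.45%) and at 66 named loci (0.565%), and among the unnamed loci 56 were at 0 in 1 library, 15 in 2, 10 in 3 and 2 in 4. A value of 0 can be a failed estimate in such a table, so these loci are described as listed at 0.

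Level, length and values of 0 moved together among loci with their own span. The 59 loci under 200 bases had a median mean of 97.1 FPKM, and 37.3% of them were listed at 0 somewhere. The 47 loci from 200 to under 300 bases had 5.47 FPKM and 19.1%, and the 232 loci from 300 to under 1000 bases had 1.58 FPKM and 6.03%. From 1000 to under 10000 bases there were 328 loci with a median of 1.42 FPKM, of which 0.305% were listed at 0, and none of the 29 longer loci was. Few named loci with their own span were as short. The 6 under 200 bases had a median of 109 FPKM, and all 6 were listed at 0 somewhere. The 3 from 200 to under 300 bases had 2299 FPKM and 33.3%, and the 46 from 300 to under 1000 bases had 51.7 FPKM and 0%. How the authors' program set the effective length of loci shorter than a fragment was not given by the sources, and its part in these levels was not tested. The short loci weighed on the whole table: unnamed loci held 9.45% to 24.3% of the summed FPKM of a library, the 10 highest of them 7.12% to 21.9%, and all unnamed loci of at least 300 bases 0.619% to 0.890%.

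**Figure D1:**
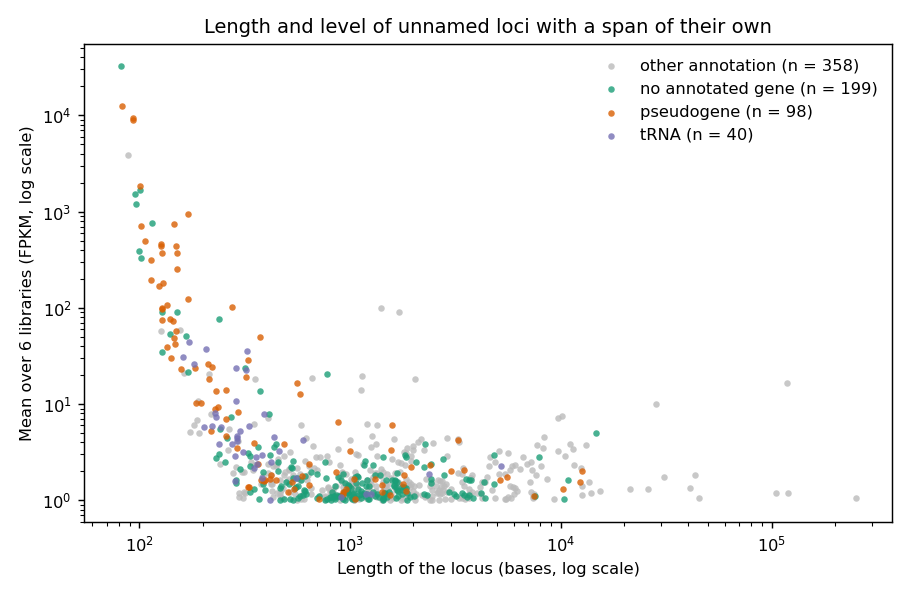
Length (bases, log scale) and mean over 6 libraries (FPKM, log scale) of the 695 unnamed loci with a span of their own, 1 point per locus, coloured by the annotation at the locus. The median falls from 97.1 FPKM under 200 bases to 1.42 FPKM between 1000 and 10000 bases, and pseudogenes and stretches with no annotated gene lead the short end.

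The 695 loci with their own span were compared with GENCODE release M21 and RefSeq gene positions on mm10. No annotated gene lay at 199 of them, 98 lay on a pseudogene, 118 on an exon of a noncoding gene and 49 on an exon of a coding gene of the same strand, 100 on a gene present in RefSeq only, 40 on a tRNA gene, 40 opposite a gene, 36 in an intron and 15 on a small RNA. Pseudogene loci were short and high, with a median length of 329 bases and a median mean of 6.70 FPKM. Of the 20 highest loci, 13 lay on a pseudogene and 6 had no annotated gene.

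Sequence was read from GENCODE M21 transcripts for the short loci that fall in an annotated exon, to see how far they can be told from coding transcripts. Of 104 unnamed loci of at most 300 bases that were looked up, 34 had at least 50 bases in an exon, and 25 of these matched a coding transcript of another gene, with a median identity of 98.8%. Other genes were told apart by name only, so a gene that overlaps the same bases could also count as a match. Of these 25 parent genes 23 were measured, all of them at 1 FPKM or more (median 111 FPKM), and the parent was lower than the unnamed locus in 10. The 7 sequences printed here are copies at high loci or at a locus called between genotypes. Capitals mark bases that differ from the aligned stretch of the parent transcript, gaps included, and a sequence with no capitals is identical to it. Positions are on mm10 and each sequence runs 5′ to 3′ on the strand read for the locus or its exon. Only the part of a locus inside the exon was read, so a sequence can be shorter than its locus. The first is Gm9616 at chr13:3298887-3298963 (plus strand), a copy of the ribosomal protein gene Rps4x, the second Gm18234 at chr16:27843446-27843546 (minus), a copy of Zfp106. The third, at chr11:6453223-6453324 (minus), lies opposite Gm11971, a copy of the small ubiquitin-like modifier gene Sumo2, and the fourth is Gm6969 at chr12:24638717-24638867 (minus), a copy of the respiratory chain gene Cox7a2l. The fifth is Rps13-ps1 at chr8:87048078-87048206 (plus), a copy of Rps13, the sixth Gm6365 at chr19:11878222-11878358 (minus), a copy of Chtop, and the last is Gm18734 at chr17:35304967-35305032 (minus), which matches the vesicle tethering gene Vps52.
XLOC_006205: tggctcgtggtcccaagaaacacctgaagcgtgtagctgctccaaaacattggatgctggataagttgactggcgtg
XLOC_010306: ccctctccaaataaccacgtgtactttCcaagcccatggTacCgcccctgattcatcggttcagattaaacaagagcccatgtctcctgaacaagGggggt
XLOC_004076: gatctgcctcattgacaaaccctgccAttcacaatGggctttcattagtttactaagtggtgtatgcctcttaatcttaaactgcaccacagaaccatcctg
XLOC_005797: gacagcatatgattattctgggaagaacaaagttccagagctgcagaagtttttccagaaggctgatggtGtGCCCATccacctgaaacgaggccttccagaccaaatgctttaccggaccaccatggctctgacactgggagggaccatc
XLOC_025704: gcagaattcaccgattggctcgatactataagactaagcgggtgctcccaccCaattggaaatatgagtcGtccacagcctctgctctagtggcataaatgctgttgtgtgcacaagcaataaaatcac
XLOC_013356: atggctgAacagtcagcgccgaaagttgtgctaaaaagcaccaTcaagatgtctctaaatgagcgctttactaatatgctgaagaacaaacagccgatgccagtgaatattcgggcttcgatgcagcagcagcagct
XLOC_011747: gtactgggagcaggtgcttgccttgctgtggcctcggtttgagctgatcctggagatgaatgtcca

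XLOC_006205, at Gm9616, was identical to Rps4x over all 77 bases read, of a length of 93 bases. Replicates 1, 2 and 3 stood at 9741, 13583 and 9684 FPKM for the CCP1 cKO and at 6711, 9236 and 4756 FPKM for the WT. Every CCP1 cKO value lay above every WT value, but the log2 difference of 0.71 ± 0.38 did not pass the test (adjusted p = 0.976). Its parent Rps4x had 643, 574 and 576 FPKM in the CCP1 cKO and 623, 561 and 641 FPKM in the WT libraries, in the same order of replicates, which is used for every list of 3 values below. XLOC_010306 differed from Zfp106 at 4 of 100 bases and had 1202, 2017 and 2532 FPKM in the CCP1 cKO and 1766, 2417 and 1048 FPKM in the WT libraries, where Zfp106 had a mean of 22.6 FPKM. The genotypes overlapped.

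Some copies had a value in every library. XLOC_005797, at Gm6969, matched Cox7a2l at 144 of 151 bases and had 262, 295 and 204 FPKM in the CCP1 cKO and 233, 312 and 203 FPKM in the WT libraries, against a mean of 151 FPKM for Cox7a2l. XLOC_020297, opposite the noncoding gene Gm26825, matched the heat shock protein gene Hspa8 at 140 of 143 bases and had 730.1, 783 and 658 FPKM in the CCP1 cKO and 713, 896 and 645 FPKM in the WT libraries, against 901 FPKM for Hspa8. At XLOC_013356, which matched the mRNA export gene Chtop at 134 of 136 bases, the values were 46.9, 99.3 and 74.7 FPKM and 72.3, 79.4 and 61.1 FPKM. These loci rank among the high ones without a value of 0, and their genotypes overlapped.

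Other copies differed widely between libraries of a genotype or were listed at 0 in some. XLOC_025704, at Rps13-ps1, matched Rps13 at 127 of 129 bases and had 433, 0 and 0 FPKM in the WT libraries and 11.3, 0 and 0 FPKM in the CCP1 cKO libraries, so that 1 library carried nearly all of its signal, while Rps13 had 478, 417 and 448 FPKM and 463, 317 and 426 FPKM. XLOC_004007, at the high mobility group gene Hmga1b, matched Hmga1 at 126 of 127 bases and had 44.7, 68.6 and 43.5 FPKM in the CCP1 cKO and 0, 91.7 and 97.5 FPKM in the WT libraries. XLOC_004076, which matched Sumo2 in antisense at 100 of 102 bases, had 101, 569 and 489.5 FPKM in the CCP1 cKO and 599, 2295 and 237 FPKM in the WT libraries. WT replicate 2 was its highest library and CCP1 cKO replicate 1 its lowest. XLOC_010658, in the exon of Tmem181a, spread less. It was identical to the opposite strand of the dynein light chain gene Dynlt1a over 157 bases. Whether Dynlt1a overlaps these same bases, so that the locus is no copy, was not checked. The values of XLOC_010658 were 56.7, 82.04 and 56.8 FPKM and 56.4, 74.5 and 26.8 FPKM. How the alignment divided fragments between copy and parent was not tested.

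The highest loci differed in how far their libraries spread. XLOC_005249, at chr12:31020216-31020297 with no annotated gene, had 0, 23890.3 and 21754 FPKM in the CCP1 cKO and 83371, 38977 and 28594 FPKM in the WT libraries. All WT values were above all CCP1 cKO values, and the adjusted p was 0.976. XLOC_012492, at the pseudogene Gm6724, had 8183, 19296 and 22061 FPKM and 10188, 8492 and 6464 FPKM, and XLOC_017663, at the pseudogene Gm11942, 9019, 17951 and 8577 FPKM and 5745, 12808 and 2711 FPKM. In both the genotypes overlapped. XLOC_000151, opposite Gm5526, had 2086, 8556 and 4635 FPKM in the CCP1 cKO and 2669.7, 4125 and 1355 FPKM in the WT libraries. The steadiest of the 10 highest was XLOC_025347, with no annotated gene, at 1091, 2333 and 1616 FPKM and 1630.2, 1736 and 1533 FPKM. XLOC_013575, also with no annotated gene, had 0, 612 and 1036 FPKM against 3529.7, 2522 and 1462 FPKM, again with every CCP1 cKO value below every WT value, with an adjusted p of 0.976. XLOC_018771, at the pseudogene Gm11223, had 3371, 2232 and 0 FPKM in the WT and 5.84, 0 and 0 FPKM in the CCP1 cKO libraries.

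Loci at tRNA genes were described as a group. tRNAs carry amino acids to the ribosome, and their genes, read by RNA polymerase III, give short precursors. In RefSeq, 43 tRNA genes of 18 isotypes lay at 40 unnamed loci, 11 of them on chromosome 13 between 21 and 24 Mb and 3 on chromosome 3 near 96 Mb, and 33 of the 40 were shorter than 500 bases. Their median was 5.46, 3.12 and 4.94 FPKM in the CCP1 cKO and 7.77, 1.01 and 1.17 FPKM in the WT libraries, so that WT replicates 2 and 3 stood low and WT replicate 1 stood highest. Loci on small RNAs and those with no annotated gene leaned the same way in the WT libraries, by less. Median log2 deviations from the locus' own mean, at loci above 0 throughout, were 1.23, -1.35 and -1.31 in the WT at tRNA loci. They were 0.52, -0.37 and -0.40 at the 15 small RNA loci, and 0.18, -0.18 and -0.31 where no gene was annotated. XLOC_028075, at the tRNA gene n-TEttc8 for glutamate (chr9:104408564-104408736), had 58.8, 44.6 and 92.8 FPKM in the CCP1 cKO and 59.98, 3.86 and 5.85 FPKM in the WT libraries. XLOC_003166, at n-TGacc1 for glycine (chr11:48823717-48823923), had 66.5, 48.7 and 41.5 FPKM and 43.1, 13.1 and 11.5 FPKM. Both showed the same low WT replicates 2 and 3, and neither passed the test (adjusted p = 0.976 and 0.954).

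Over the 40 tRNA loci the median log2 difference between genotypes was 0.69, where the median over all 13200 loci tested was -0.02. The log2 difference was positive at 37 of the 40 loci. None passed the adjusted threshold, 5 had an unadjusted p under 0.05 (12.5%, against 4.62% of all loci tested), and the genotypes did not overlap at 3 (7.5%, against 9.8% of all). The size of the difference varied with single libraries, while its direction did not. The median was 0.27 without WT replicate 2, 0.44 without WT replicate 3 and 1.35 without WT replicate 1. In the same order, the log2 difference was positive at 35, 31 and 39 of the 40 loci. With any 1 CCP1 cKO library left out, the median lay between 0.47 and 0.89. This comparison was added after the values had been seen. XLOC_006815, at n-TSaga8 for serine, shows the pattern at its widest, with 43.9, 21.2 and 26.5 FPKM in the CCP1 cKO and 59.8, 0 and 4.41 FPKM in the WT libraries. XLOC_007569, at n-TYgta10 for tyrosine, had 65.3, 26.8 and 32.7 FPKM and 70.7, 9.78 and 10.01 FPKM, and its WT replicate 1 was above every CCP1 cKO library. Fewer cells of a kind and less RNA per cell cannot be told apart in sorted bulk samples.

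**Figure D2:**
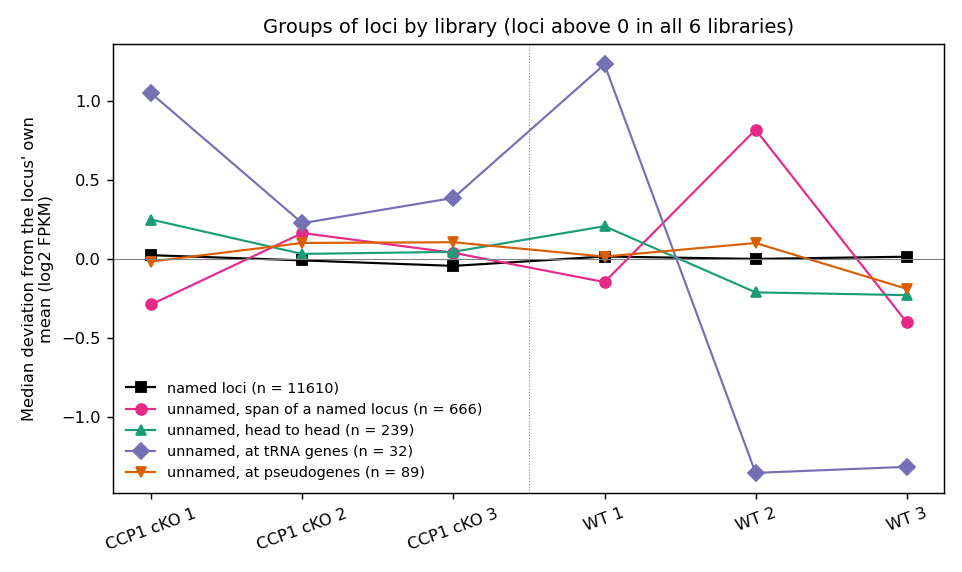
Median deviation of each library from the locus' own mean (log2 FPKM) for named loci and 4 groups of unnamed loci above 0 in all 6 libraries, with libraries on the x axis and the number of loci in the legend. Named loci lie within 0.05 of 0, loci at tRNA genes fall to -1.35 and -1.31 in WT replicates 2 and 3, and loci in the span of a named locus rise to 0.82 in WT replicate 2.

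Some unnamed loci lay at microRNA genes. A microRNA is cut from a long primary transcript, often a noncoding RNA, and its seed, bases 2 to 8, pairs with target mRNAs. There were 126 unnamed loci at 26 sites where their span overlaps or lies near a microRNA gene, 62 of them in the span of Sox2 and its overlapping transcript Sox2ot. The mature sequences at the sites named here are shown because miR-9, miR-125 and miR-181 are known in neural development. They are RefSeq sequences on GRCm38.p6, with the seed in capitals. miR-181a and miR-181b share the seed ACAUUCA.
mmu-miR-9-5p: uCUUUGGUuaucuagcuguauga
mmu-miR-125b-5p: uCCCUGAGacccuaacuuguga
mmu-miR-181a-5p: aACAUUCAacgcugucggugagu
mmu-miR-181b-5p: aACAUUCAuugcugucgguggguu

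XLOC_000533 ended 69 bases before the named locus of Mir181a-1 and Mir181b-1 on the same strand (chr1:137898575-137965485). It had 19.9, 28.3 and 25.7 FPKM in the CCP1 cKO and 22.2, 34.3 and 19.3 FPKM in the WT libraries, where the named locus had 0.752, 1.597 and 1.24 FPKM and 0.828, 2.26 and 1.12 FPKM. The unnamed locus was above the named one in all 6 libraries, and its genotypes overlapped (log2 difference -0.01 ± 0.22, adjusted p = 0.999). XLOC_006613, the highest of 7 unnamed loci in the span of C130071C03Rik and Mir9-2, had 9.31, 14.5 and 12.96 FPKM and 10.7, 20.2 and 12.6 FPKM, below the 69.7, 71.3 and 71.3 FPKM and 70.9, 75.8 and 70.4 FPKM of the named locus. XLOC_016384, at Mir9-1, had 6.88, 12.3 and 9.87 FPKM and 3.08, 16.4 and 7.02 FPKM, and XLOC_026942, at Mir125b-1, 11.1, 14.1 and 16.2 FPKM and 3.63, 15.2 and 12.7 FPKM. WT replicate 2 was the highest library at the first 3 of these loci, and WT replicate 1 was the lowest at XLOC_026942. None of the 126 loci passed the test, and the genotypes did not overlap at 2 (1.59%, against 9.8% of all loci tested).

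The largest set of unnamed loci lay inside the spans of named genes. Of 446 with a single named host, 373 (83.6%) were on the strand of the host and 73 on the opposite strand. The 32 spans that held at least 5 unnamed loci held 433 in all (28.4% of the 1524), of which 431 had a single isoform. The span of Sox2 and Sox2ot on chromosome 3 (chr3:34196475-34680879, 484405 bases) held 62, all on the plus strand, and that of Sox1 and Gm5607 held 35. Both Sox2 and Sox1 encode transcription factors of neural progenitors. Klf12 held 28, Tcf20 24, Trim2 and Scaf8 21 each, the imprinted locus Snrpn 19, and Gatad2b and Lzts1 18 each.

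WT replicate 2 stood out in these spans. The 62 loci in the Sox2 span had medians of 1.25, 1.93 and 1.43 FPKM in the CCP1 cKO and 1.17, 3.23 and 0.787 FPKM in the WT libraries, and WT replicate 2 was the highest library at 60 of them. The highest named locus of the span had 182, 160.2 and 149.6 FPKM in the CCP1 cKO and 162, 164 and 193 FPKM in the WT libraries, with no such peak, while the named locus of Mir1897 and Sox2ot in the same span had 19.9, 29.8 and 22.4 FPKM and 15.02, 36.6 and 23.1 FPKM, with WT replicate 2 the highest. Over the 32 spans, WT replicate 2 had the highest median in 28 and was the highest library at 358 of the 433 loci (82.7%). Its median was 2.18 times the median of the other libraries (range 1.03 to 3.86), while the same ratio for the named locus of 31 spans was 1.12 (range 0.925 to 1.81). None of the 433 passed the test between genotypes, and the genotypes did not overlap at 11, where the share over all loci tested was 9.8%. What set WT replicate 2 apart was not tested.

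**Figure D3:**
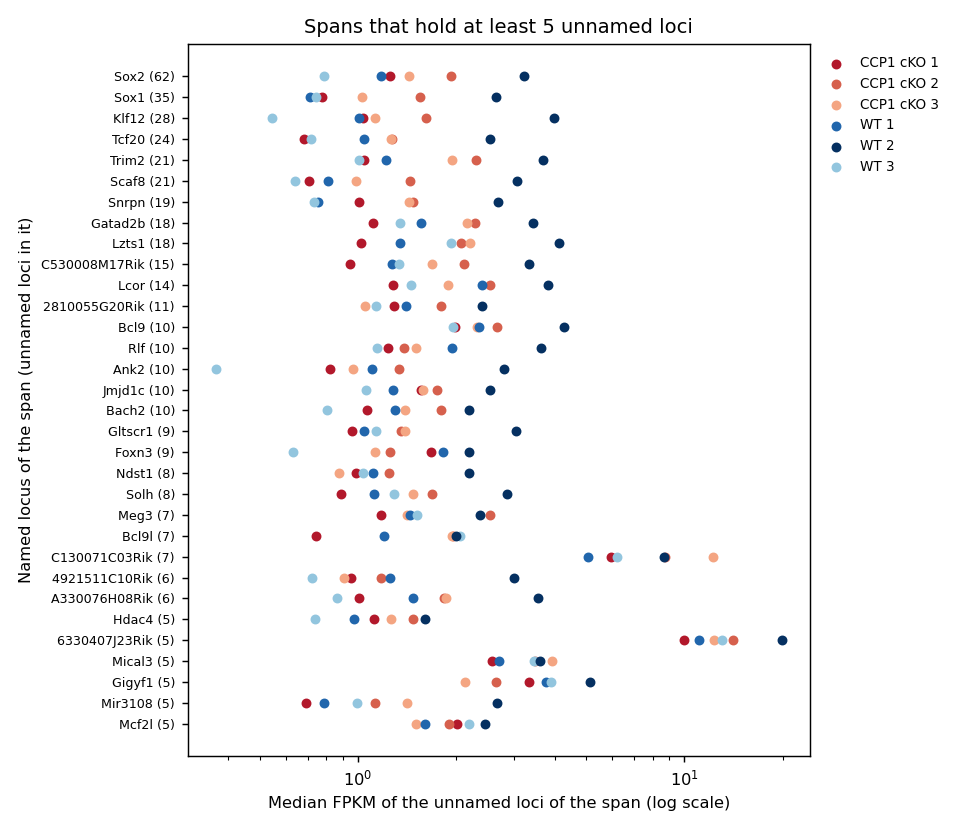
Median FPKM (log scale) of the unnamed loci in each of the 32 spans that hold at least 5, 1 row per span labelled by a named locus with the number of unnamed loci, 1 point per library. WT replicate 2 is the rightmost point in 28 of the 32 spans.

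For all 699 unnamed loci in the span of a named locus, the median log2 deviation from the locus' own mean was -0.29, 0.16 and 0.04 in the CCP1 cKO and -0.15, 0.82 and -0.40 in the WT libraries, at the 666 above 0 throughout. Their median log2 difference between genotypes was -0.08, and it turned to 0.14 without WT replicate 2. None of the 699 passed the test. The highest was XLOC_006571, opposite the respiratory chain gene Ndufs6, with 201, 754 and 587 FPKM in the CCP1 cKO and 0, 0 and 17.6 FPKM in the WT libraries, a locus picked after its values were seen. XLOC_001720 and XLOC_001719 shared the span of 6330407J23Rik. XLOC_001720 had 11.6, 15.002 and 14.3 FPKM and 14.3, 25.3 and 15.1 FPKM, and XLOC_001719 had 10.4, 14.3 and 12.9 FPKM and 13.4, 19.9 and 13.9 FPKM, again with WT replicate 2 the highest. The longest spans held XLOC_004188 in Odz2, a teneurin, at 1.09, 0.231 and 0.502 FPKM and 0.765, 4.07 and 0.429 FPKM, XLOC_007514 opposite the neuregulin gene Nrg3 at 1.01, 1.13 and 1.04 FPKM and 1.34, 0.665 and 0.982 FPKM, and XLOC_011264 in Dlgap1, a postsynaptic scaffold gene, at 0.476, 4.84 and 0 FPKM and 0.652, 1.73 and 0 FPKM. Of these 3, WT replicate 2 was the highest library only at XLOC_004188.

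Loci with their own span lay close to named ones. Distances run to the edge of the span given to the named locus, which is that of the assembled stretch. None of the 695 overlapped a named locus, the median distance to the nearest was 1147 bases, 345 (49.6%) lay within 1 kb, 469 (67.5%) within 10 kb and 73 beyond 50 kb. Within 10 kb, 272 lay upstream on the opposite strand, 100 downstream on the same strand, 56 upstream on the same strand and 38 downstream on the opposite strand. The table has no strand column. The strand used here follows from the order of locus numbers, and it matched the annotation for 99.76% of 19104 loci with a unique name.

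Of the 695, 241 (34.7%) lay head to head with a named locus within 1 kb, that is, upstream of it and on the other strand. Among 7601 named loci with a span of their own, 945 (12.4%) had that position relative to another named locus. Many promoters, above all those rich in CG dinucleotides, start transcription in both directions. The 241 loci lay a median of 140 bases from the near edge of the span of their partner (range 2 to 757 bases). That span belonged to the partner alone at 205 of them, and elsewhere its edge need not be the start of the partner. The 241 loci were a median of 1310 bases long and had a median mean of 1.36 FPKM, where the partners had 29.7 FPKM. The partner was lower at 7 of them. For 178 of 251 partner genes a RefSeq promoter of 300 bases was matched, from 250 before to 50 after the start. These held a median of 28 CG dinucleotides, against 21 in the promoters of named loci tested and 7 in all promoters, and 88.1%, 82.0% and 43.5% held at least 10.

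**Figure D4:**
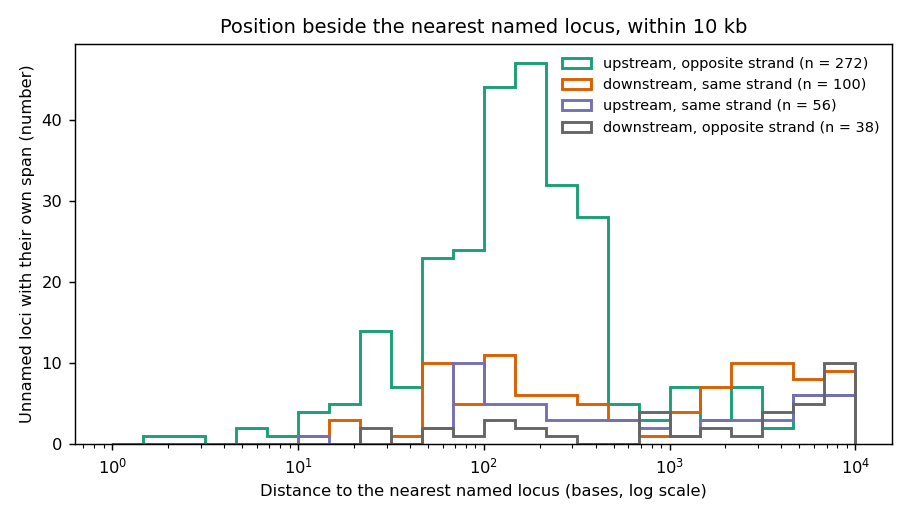
Number of unnamed loci with their own span by distance to the nearest named locus (bases, log scale), within 10 kb, in 4 classes of side and strand. The upstream, opposite-strand class (272 loci) is highest around the median head-to-head distance of 140 bases, and the other 3 classes have no such peak.

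Both promoters printed here are of head-to-head pairs, with the bases between the start of the unnamed locus and the start of its partner in capitals. The promoter of the zinc finger gene Zswim5 lies at chr4:116877152-116877451 (plus strand) and has 52 CG dinucleotides, and that of Qser1 at chr2:104816647-104816946 (minus strand) has 49. Both are RefSeq sequences on GRCm38.p6.
XLOC_018935 and Zswim5: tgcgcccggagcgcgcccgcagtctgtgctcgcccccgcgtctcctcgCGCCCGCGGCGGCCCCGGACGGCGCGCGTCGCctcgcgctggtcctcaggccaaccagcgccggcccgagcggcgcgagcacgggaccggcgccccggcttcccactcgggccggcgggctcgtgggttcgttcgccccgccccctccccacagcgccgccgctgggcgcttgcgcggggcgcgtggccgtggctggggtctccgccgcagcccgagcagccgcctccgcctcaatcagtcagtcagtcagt
XLOC_014264 and Qser1: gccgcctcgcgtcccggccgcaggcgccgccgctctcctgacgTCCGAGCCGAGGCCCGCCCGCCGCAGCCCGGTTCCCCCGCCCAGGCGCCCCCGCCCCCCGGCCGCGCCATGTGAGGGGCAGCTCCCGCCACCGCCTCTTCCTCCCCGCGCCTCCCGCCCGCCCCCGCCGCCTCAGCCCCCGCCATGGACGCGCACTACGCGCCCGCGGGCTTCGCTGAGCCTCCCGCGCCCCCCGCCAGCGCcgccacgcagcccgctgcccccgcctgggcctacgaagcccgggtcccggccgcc

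XLOC_018935 began 33 bases from Zswim5 and had 4.595, 4.06 and 4.13 FPKM in the CCP1 cKO and 4.26, 4.24 and 4.45 FPKM in the WT libraries, where Zswim5 had 81.8, 76.7 and 80.7 FPKM and 67.5, 79.7 and 88.1 FPKM. Its libraries spread little and the genotypes overlapped. XLOC_014264, 203 bases from Qser1, had 4.92, 4.86 and 4.23 FPKM in the CCP1 cKO and 2.99, 3.59 and 3.07 FPKM in the WT libraries. All CCP1 cKO values were above all WT values, with a log2 difference of 0.43 ± 0.10 and an adjusted p of 0.476, and its partner had 10.7, 11.7 and 9.86 FPKM and 12.1, 23.02 and 10.2 FPKM. XLOC_003723, 286 bases from the importin gene Kpnb1, had 3.34, 3.91 and 3.91 FPKM and 3.18, 4.13 and 4.41 FPKM. XLOC_008239, 51 bases from Pnma2, was one of the 7 above their partner, with 20.1, 17.6 and 18.6 FPKM and 22.7, 16.6 and 17.1 FPKM against 5.26, 6.47 and 6.37 FPKM and 6.92, 6.81 and 6.38 FPKM for Pnma2. These 4 were picked after their values were seen.

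None of the 241 head-to-head loci passed the test, and the genotypes did not overlap at 24 (9.96%, against 9.8% of all loci tested), of which 19 were higher and 5 lower in the CCP1 cKO, where the shares over all loci were 3.98% and 5.81%. Their median log2 difference was 0.11. It ranged from 0.04 to 0.18 with 1 library left out, at its lowest without CCP1 cKO replicate 1, 0.05 without WT replicate 2 and 0.06 without WT replicate 3. The median deviation was 0.25 in CCP1 cKO replicate 1 and 0.21 in WT replicate 1 and -0.21 and -0.23 in WT replicates 2 and 3.

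Among loci of at least 1000 bases that were above 0 in every library, the highest were steady. XLOC_000132 lies 114 bases upstream of the named locus of the transcription factor gene Pou3f3, in an exon that GENCODE gives to Pou3f3 (chr1:42695555-42696963). It had 95.5, 100.2 and 94.6 FPKM in the CCP1 cKO and 94.3, 99.5 and 107 FPKM in the WT libraries, and the genotypes overlapped. XLOC_020073 lies on an exon that GENCODE gives to the chaperonin gene Cct6a, and was counted above under exons of noncoding genes. It had 97.4, 101 and 100.1 FPKM in the CCP1 cKO and 84.8, 75.7 and 82.5 FPKM in the WT libraries. Every CCP1 cKO value was above every WT value, yet the log2 difference of 0.30 ± 0.07 did not pass (adjusted p = 0.474). XLOC_009947, 118584 bases long, lies in the RefSeq gene of the axon guidance receptor Robo1. It had 19.3, 18.3 and 16.8 FPKM in the CCP1 cKO and 13.99, 15.8 and 14.7 FPKM in the WT libraries, without overlap (log2 difference 0.27 ± 0.07, adjusted p = 0.73). XLOC_007196, which shares its span only with unnamed loci, had 47.5, 44.3 and 47.9 FPKM in the CCP1 cKO and 41.3, 29.1 and 42.1 FPKM in the WT libraries. XLOC_028279 and XLOC_028278 both lie in exons of the phosphatase subunit gene Ppp2r3d. XLOC_028279 had 18.7, 18.8 and 21.9 FPKM and 16.3, 22.1 and 18.6 FPKM, and XLOC_028278 15.2, 17.3 and 22.8 FPKM and 17.1, 17.9 and 19.8 FPKM. XLOC_016448, 77 bases downstream of the span that holds Gatad2b, had 12.8, 12.7 and 11.9 FPKM and 14.1, 21.2 and 11.8 FPKM, with WT replicate 2 the highest.

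A list of 45 genes of interneurons and of the study, of which 44 are in the table, had unnamed loci in or within 10 kb of 12 genes. Of these 75 unnamed loci, 63 lay in or near the span that holds Sox2 and 12 elsewhere. XLOC_005236, 152 bases from Sox11 and head to head with it, had 2.36, 1.9002 and 2.34 FPKM in the CCP1 cKO and 1.56, 1.68 and 1.02 FPKM in the WT libraries, without overlap. XLOC_016223, 140 bases downstream of the span that holds Sox2 and in an exon of Sox2ot, had 2.01, 2.15 and 2.12 FPKM in the CCP1 cKO and 2.5001, 8.19 and 3.97 FPKM in the WT libraries, lower in the CCP1 cKO without overlap, with an adjusted p of 0.976. Opposite Meis2, a gene of the lateral GE, XLOC_014323 had 5.15, 6.96 and 6.12 FPKM and 3.73, 4.98 and 5.21 FPKM, and XLOC_014324 had 3.51, 6.38 and 5.63 FPKM and 2.59, 5.33 and 5.12 FPKM. Others lay at Dlx2, Dlx6, Isl1, Sox6, Npas1 and Agbl5, with means between 1.01 and 1.82 FPKM, and none of the 75 passed the test. No unnamed locus lay near Agtpbp1 itself: the 5 nearest on chromosome 13 were all more than 1 Mb away, and none passed. The nearest, XLOC_006505, lies head to head with the RNA-binding protein gene Hnrnpa0 and had 1.45, 1.78 and 1.49 FPKM and 1.34, 1.83 and 1.41 FPKM.

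Between genotypes, 10 of the 1524 unnamed loci passed the adjusted p of 0.05 (0.656%), 7 higher and 3 lower in the CCP1 cKO. Over all 13200 loci tested the share was 0.0909%, with 0.0606% higher and 0.0303% lower, so that 10 of the 12 loci called in the whole table were unnamed. All 10 had a span of their own, 6 were shorter than 200 bases, and 9 were listed at 0 in at least 1 library. Of the 1441 unnamed loci above 0 in every library, 1 was called (0.0694%). All 10 had a mean under 1 FPKM in 1 genotype, so only the other genotype brought them past the limit. The higher share among unnamed loci is therefore given as a description. At an unadjusted p under 0.05 there were 98 unnamed loci (6.43%) against 4.62% of all loci tested. The genotypes did not overlap at 127 (8.33%) against 9.8% of all, with 81 higher and 46 lower, where the shares over all loci were 3.98% higher and 5.81% lower. The median log2 difference was -0.00 for unnamed loci and -0.02 for all loci tested.

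At 6 loci every WT library was listed at 0 and every CCP1 cKO library was above it. XLOC_011573, opposite the noncoding gene Gm26694 (chr17:25873203-25873556), had 30.5, 32.6 and 46.5 FPKM in the CCP1 cKO (adjusted p = 5.95e-05), the most even of the 6. XLOC_006010, at chr12:82493147-82493243, had 647, 3356 and 3163 FPKM in the CCP1 cKO libraries (adjusted p = 0.00147). XLOC_006009, at chr12:82491764-82491891 on the same strand and close by, had 172, 252 and 125 FPKM (adjusted p = 5.95e-05). Both lie downstream of Sipa1l1 with no annotated gene. XLOC_011097, at chr17:39921422-39921523 with no annotated gene, had 99.1, 765 and 1127 FPKM (adjusted p = 0.0201), and XLOC_021858, at the pseudogene Rnps1-ps, 71.1, 554 and 554 FPKM (adjusted p = 0.0192). XLOC_011747, at Gm18734, had 18.4, 68.4 and 56.8 FPKM (adjusted p = 0.0107). It matched Vps52 over all 66 bases read, of a length of 185 bases, and the rest was not compared. Vps52 itself was not at 0 in any WT library, with 18.7, 17.7 and 19.8 FPKM in the WT and 26.1, 32.7 and 31.99 FPKM in the CCP1 cKO.

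XLOC_018090, in the RefSeq gene Gm46869 (chr4:125291829-125301540), was the only called locus above 0 in every library, with 22.6, 8.86 and 10.7 FPKM in the CCP1 cKO and 0.485, 0.269 and 0.307 FPKM in the WT libraries. The log2 difference on log2(FPKM + 1) was 3.37 ± 0.31 (adjusted p = 0.0192). Lower in the CCP1 cKO were XLOC_014158, at the pseudogene Gm13736, with 62.3, 34.6 and 41.8 FPKM in the WT libraries and all CCP1 cKO libraries listed at 0 (adjusted p = 0.000111), and XLOC_006789, with no annotated gene, with 80.1, 82.1 and 301 FPKM and likewise 0 (adjusted p = 0.00449). XLOC_005958, at Gm11042, had 0, 0.334 and 0.359 FPKM against 7.37, 5.26 and 7.59 FPKM (log2 difference -2.65 ± 0.18, adjusted p = 0.00449). All adjusted p-values come from limma, adjusted over the 13200 loci by the Benjamini-Hochberg method, and the exact two-sided permutation test of each of the 10 gave 0.1, the smallest p that 3 against 3 libraries allow.

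These calls depended on which loci and libraries entered. Only 4 of the 10 stayed past the threshold without CCP1 cKO replicate 3, and XLOC_018090 was the only unnamed locus called when loci with a 0 were left out. Leaving out any 1 WT library ended the calls of XLOC_011097, XLOC_011747, XLOC_018090 and XLOC_021858, as did testing all loci with no limit on the mean.

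**Figure D5:**
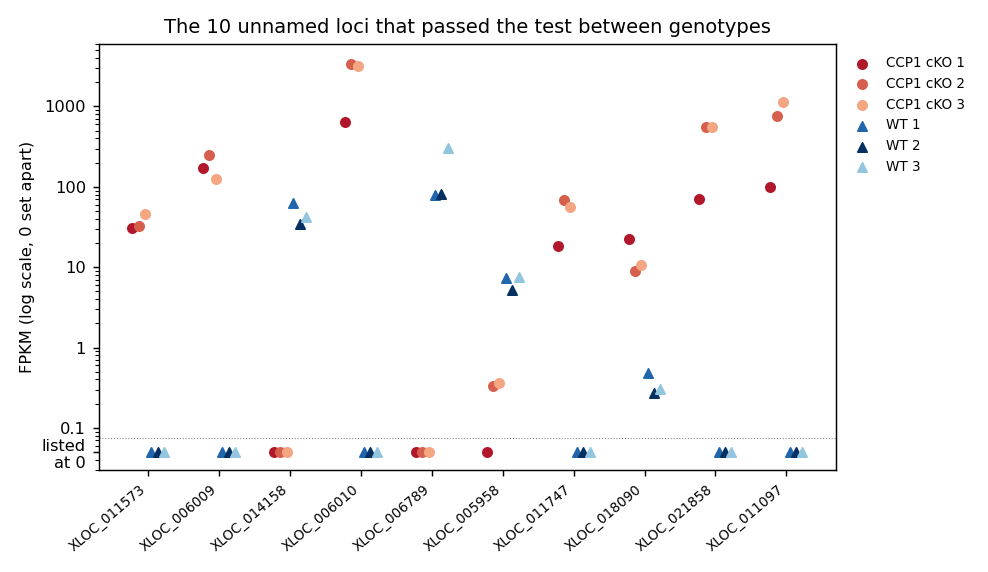
FPKM (log scale, values listed at 0 set apart at the bottom) of the 10 unnamed loci that passed the adjusted p of 0.05, 1 point per library, circles for CCP1 cKO and triangles for WT. In 8 loci all libraries of 1 genotype are listed at 0, and only XLOC_018090 is above 0 in every library.

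Among loci above 0 in every library with no overlap, those with the largest differences did not pass apart from XLOC_018090. XLOC_016711, at Gm20568, had 239, 119 and 135 FPKM in the CCP1 cKO and 904, 573 and 645 FPKM in the WT libraries (log2 difference -2.14 ± 0.29, adjusted p = 0.124). XLOC_011382, in the span of Tmem181b-ps, had 0.393, 0.322 and 0.486 FPKM and 1.695, 2.41 and 2.47 FPKM (log2 difference -1.18 ± 0.16). XLOC_006540 had 0.751, 0.456 and 0.599 FPKM and 2.797, 3.67 and 2.21 FPKM (-1.27 ± 0.18), XLOC_019853, in the RefSeq gene Zfp33b, 1.52, 1.89 and 0.0991 FPKM and 8.43, 2.48 and 7.97 FPKM (-1.73 ± 0.50), and XLOC_005334, at the small RNA Gm22973, 3.01, 1.76 and 0.505 FPKM and 4.13, 3.26 and 6.57 FPKM (-1.11 ± 0.38). These 5 were lower in the CCP1 cKO.

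The 4 others, all higher in the CCP1 cKO, lay on 1 stretch of chromosome 12. XLOC_005764, at the pseudogene Gm9259 (chr12:19828464-19828598), had 54.6, 105 and 33.98 FPKM in the CCP1 cKO and 12.03, 16.1 and 10.98 FPKM in the WT libraries (log2 difference 2.09 ± 0.38, adjusted p = 0.256). XLOC_005784, at the pseudogene Gm9292, had 2.84, 4.58 and 3.18 FPKM and 0.218, 0.85 and 0.133 FPKM (1.71 ± 0.24, adjusted p = 0.124). XLOC_005184 had 2.38, 3.28 and 3.36 FPKM and 0.308, 0.724 and 0.0963 FPKM (1.56 ± 0.21), and XLOC_005794, at the pseudogene Gm47446, 2.72, 4.14 and 5.02 FPKM and 0.348, 1.17 and 1.01 FPKM (1.43 ± 0.25). Between 18 and 25 Mb of that chromosome, limits set after the values had been seen, there were 22 unnamed loci, 9 of them on pseudogenes. The genotypes did not overlap, with the CCP1 cKO higher, at 10 of the 22 (45.5%), where the share over all loci tested was 3.98%, and with the CCP1 cKO lower at 1. Their median log2 difference was 0.52 (0.27 without WT replicate 3, 0.33 without CCP1 cKO replicate 2). None passed the adjusted threshold, the lowest adjusted p being 0.124, and 11 had an unadjusted p under 0.05. Of 13 named loci tested there, 3 were higher in the CCP1 cKO without overlap, none was lower, and the median was 0.07.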

How the data were processed

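The 3 WT and 3 CCP1 cKO libraries of sorted interneurons were made with a stranded total RNA kit after depletion of ribosomal RNA and sequenced paired-end. Per the methods of the study, Bowtie2 aligned the reads in the Tuxedo workflow, and the FPKM values that the authors deposited per locus and library came from Cuffdiff. The submitters' processing notes also name bcl2fastq and the build mm10. For program versions and the annotation: not given in the sources used here. Locus numbers of the deposited isoform table were used only to count isoforms. The authors' own comparison columns (group means, fold changes and p-values) were not used. Columns were joined to samples by name, and 0 columns were left over. Depth is unknown, since FPKM values hold no counts, and precision rests on the 3 libraries per genotype.

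Unnamed loci are rows with no gene name and a mean of at least 1 FPKM. Positions were taken from the locus column, counted from 1. Strand was read from the order of locus numbers and checked against GENCODE M21. Annotation came from GENCODE M21 and RefSeq tables of GRCm38.p6. Sequences of GENCODE transcripts were compared with BLAST+ 2.17.0 (e-value at most 1e-10).

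The test between genotypes was limma 3.58.1 under R 4.3.3, with lmFit, then eBayes with its trend option. It ran on log2(FPKM + 1) of all 13200 loci of at least 1 FPKM in the mean. P-values were adjusted over these loci by the Benjamini-Hochberg method, and 0.05 was the threshold. A pseudocount of 1 makes fold changes of low loci too small. The procedure was tested on simulated data. For single loci an exact permutation test, two-sided, was added. The rest was done in Python 3.11.15 (NumPy 2.4.6, pandas 2.3.3, Matplotlib 3.10.9, SciPy 1.17.1).

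Loci were named by rule: those past the threshold, the 10 highest, the 10 highest of at least 1000 bases above 0 throughout, the 5 with the largest non-overlapping change in each direction above 0 throughout, up to 20 near a list of interneuron and study genes, the 5 nearest to Agtpbp1, the 3 just inside and outside the limit, and the 3 longest and shortest. Groups by annotation or position, and the microRNA, tRNA and copied loci described, were chosen later. The loci, lists and tests were chosen with earlier results of these data known. Alternatives were other pseudocounts, limits on the mean, scalings, fits, windows and overlap rules, and leaving out each library. GC content, repeats and the box B motif of tRNA genes were not analysed here. The loci beside 1 gene of the list are not reported here.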

Additional observations from a re-analysis of the deposited data

How the results depend on the processing

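The count of unnamed loci past the adjusted p of 0.05 was 10. It was 6 with no limit on the mean, 1 with loci above 0 in every library only and 17 with library weights, and it ranged from 4 to 12 with 1 library left out, 4 being without CCP1 cKO replicate 3. Of the called loci, 4 kept their call under every alternative that tested them (XLOC_011573, XLOC_006009, XLOC_014158 and XLOC_006010). Among the 69 unnamed loci picked by the naming rule, none changed direction while called. A limit of 0.5, 2 or 5 FPKM gave 3605, 545 or 170 unnamed loci. Their median length was 10171.5 bases, 2444 bases at 0.5 FPKM and 298.5 bases at 5 FPKM. The share listed at 0 was 7.34% at 2 FPKM and 15.9% at 5 FPKM, and 4.20% to 5.25% with 1 library left out. The share whose span overlaps a named locus was 45.9%, and 40.9% on the same strand only. The share with no named locus within 10 kb was 17.9%, within 5 kb 22.2% and within 50 kb 6.50%. The mean share of the summed FPKM was 17.6%, 2.58% without the 10 highest and 0.759% for loci of at least 300 bases.

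Replicate numbers are shared by the genotypes in the labels. Deviations of same-numbered libraries correlated at 0.32, 0.11 and 0.036 for replicates 1, 2 and 3. Those of differently numbered libraries correlated at -0.257 to 0.169, and replicate 1 with other numbers at -0.257 to -0.147. The 0.32 of replicate 1 was the highest value. The main test did not pair the libraries, and a shared effect of replicate 1 was not tested. With a replicate block in limma, 13 unnamed loci were called, 9 of them higher, of 16 loci called in all. An unadjusted p under 0.05 then occurred at 190 unnamed loci, against 98 without the block. With 3 libraries per genotype and no counts, 0 cannot be told from a failed estimate, and short loci with copies elsewhere carry the least certain values.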
